A study of Mus musculus with 4 samples.

Results

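The genes described here are 8 genes of extracellular purine and NAD metabolism: Nt5e (CD73), Entpd1 (CD39), Enpp1, Ada, Adora2a, Adora2b, Cd38 and Bst1 (CD157). They were chosen by name, with their values on these arrays known, and all 13 of their probes were taken, out of 28307 genes or names and 41174 gene probes. Their levels and differences are therefore given as a description, with no test. RNA came from B220 B cells, named for the CD45 isoform found on the B lineage, and was hybridised to 4 Agilent arrays with 1 dye. Fresh cells were taken from bone marrow or spleen of naive mice, either Mef2c knockout (KO) or C57BL/6 (wild type, WT). Mef2c encodes a transcription factor of the MEF2 family, active in lymphocytes and muscle. Each of the 4 groups, marrow KO, marrow WT, spleen KO and spleen WT, had 1 array, so no difference below has a replicate check. The part of Mef2c that was deleted, any Cre or promoter, the KO's background strain, and the number, age and sex of the animals were not stated in the labels.

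Outside the cell, ATP and ADP are cut to AMP by ectonucleoside triphosphate diphosphohydrolases such as CD39, and AMP is cut to adenosine by CD73. Adenosine acts on G protein-coupled receptors, among them those encoded by Adora2a and Adora2b, and is removed by uptake or by adenosine deaminase, which turns it into inosine. Extracellular NAD is used by the related cyclases and hydrolases CD38 and CD157, and ENPP1 cuts ATP, NAD and cyclic GMP-AMP. CD73, CD38 and CD157 mark stages or subsets of B cells, and CD157 is also known from marrow stromal cells and neutrophils.

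Probe sequences are shown for Nt5e, Bst1, Cd38 and Enpp1: the largest KO minus WT differences among the 8 genes in marrow and in spleen each rested on 1 probe (Nt5e, Bst1), and the probes of the others lay over 2-fold from each other in the spleen (Cd38, Enpp1). Places are on mouse build mm9 and transcript positions are those in the array's annotation, which does not say whether a probe lies in coding sequence or an untranslated region. The brighter Nt5e probe lies on chromosome 9 at 88266616 to 88266675, at transcript position 3237, and its first 30 bases are shown. The dimmer Nt5e probe, at position 1569, spans 967 genomic bases, from 88264041 to 88265007, and so crosses an intron. It is shown whole because it was not well above background on any array. The only Bst1 probe lies on chromosome 5 at 44233465 to 44233524. The first 30 bases are shown for it and for the brighter Cd38 probe, at 44302409 to 44302468 on the same chromosome. The dimmer Cd38 probe spans 377 genomic bases, from 44298826 to 44299202, also crosses an intron, and is shown whole. For Enpp1, on the minus strand of chromosome 10, the last 30 bases of the brighter probe (24361231 to 24361290) are shown with the hexamer AATAAA in capitals, and the first 30 of the dimmer one (24358048 to 24358107).
Nt5e, brighter probe: accgtttaaaattccaatccttttatgaag
Nt5e, dimmer probe: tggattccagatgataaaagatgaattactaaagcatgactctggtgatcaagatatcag
Bst1, only probe: aaccagacggtaatccagttgtatttacac
Cd38, brighter probe: tccgagcttttattgccaaattggtagtag
Cd38, dimmer probe: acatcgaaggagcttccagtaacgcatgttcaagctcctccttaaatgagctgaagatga
Enpp1, brighter probe: tAATAAAactgactaaaggactggggtagc
Enpp1, dimmer probe: cagtgtgaagtgtttgactgtattccttcc
AATAAA, a common polyadenylation signal, was present in 1 of the 13 member probes and in 4.78% of all gene probes. The Enpp1 probes lie 3124 bases from each other in the genome, the dimmer being downstream of the hexamer and annotated to a different transcript.

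The arrays were of like brightness except spleen KO. The 75th percentile of the signal was 520 there and 961 to 1008 on the others, and 59.2% of its gene spots passed the background mark against 68.9% to 71.9%. Levels are log2 signals relative to that percentile, and a gene with several probes is represented by its brightest. The error given is the scanner software's own error of a signal, about 0.20 on the log2 scale for a difference between arrays. Repeated spots of an array give a smaller one, and neither covers animals or hybridisations. Both marrow arrays shared slide 1 and scan 1 and both spleen arrays slide 2 and scan 2, so slide, scan and tissue cannot be told apart. Nor can genotype and place on the slide, since KO had position 1 and WT position 2 on each. Mef2c itself was not lower on the arrays labelled KO by its brighter probe, with signals of 5511 (KO) and 4218 (WT) in marrow and 11838 and 8534 in spleen. A dimmer Mef2c probe gave KO minus WT differences of 0.36 in marrow and -0.61 in spleen. A probe outside the deleted part would not show the deletion, and every KO direction below rests on the labels. The brightest probe of Rn18s, a ribosomal RNA, was lower on both arrays labelled KO, with log2 differences of -2.43 in marrow and -7.71 in spleen. The Y-linked gene Ddx3y, at -1.59 in marrow, was not well above background on spleen KO but was on the other arrays. The same held for the brightest probes of the Y-linked genes Kdm5d, Eif2s3y and Uty. The brightest probe of Xist, the X inactivation RNA, was well above background on all 4 arrays. In marrow the brightest probes of Kdm5d, Eif2s3y and Uty had KO minus WT differences of -0.94, -0.87 and -1.05. The arrays of each tissue thus differ in Y-linked signal as well as in label, more so in spleen. Whether any of this bears on the members' differences was not tested.

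**Figure D1:**
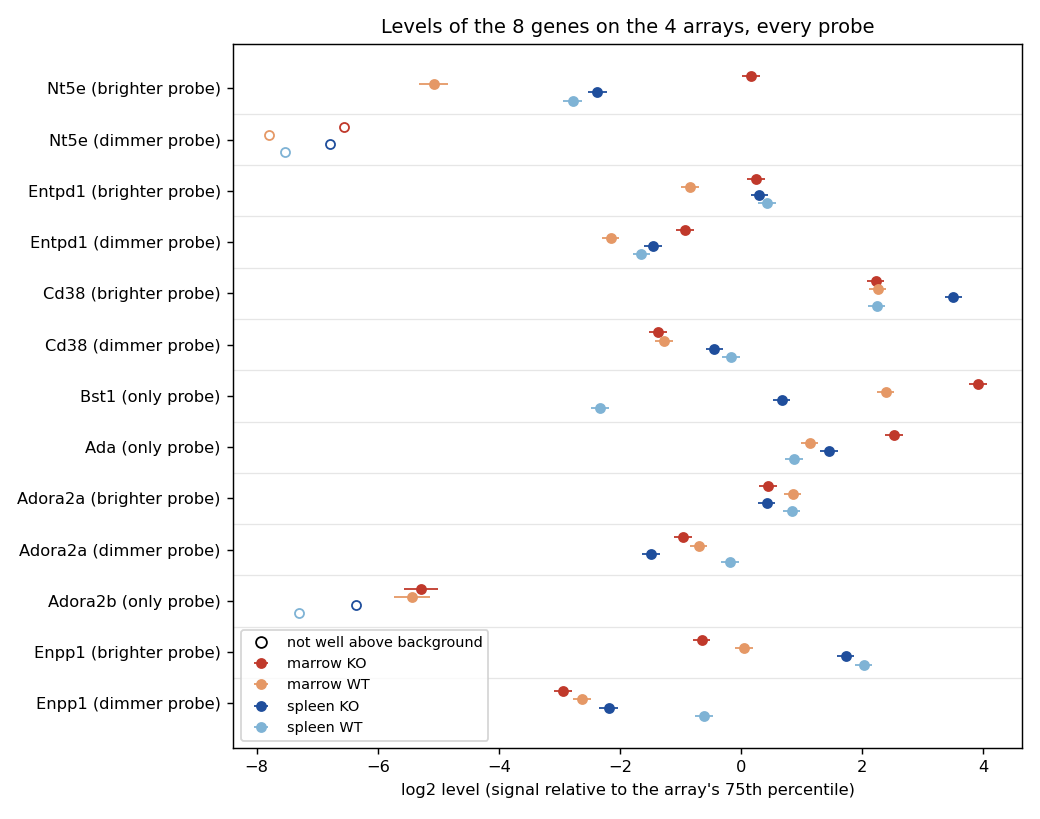
Levels of the 13 probes of the 8 genes (vertical axis) on the 4 arrays, as log2 signal relative to the array's 75th percentile (horizontal axis); bars are the scanner's own error and open circles are not well above background. The brighter Nt5e probe reads 0.16 on marrow KO and -5.08 on marrow WT, and Bst1 runs from 3.91 on marrow KO to -2.33 on spleen WT.

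Nt5e, which makes adenosine from AMP, showed the largest marrow difference of the 8 genes. Its brighter probe read 1128 ± 113 (KO, scanner error) and 28.4 ± 4.85 (WT) in marrow, and 99.9 ± 10.9 (KO) and 141 ± 14.9 (WT) in spleen. Marrow KO was highest, both spleen arrays were intermediate and marrow WT was lowest. The marrow WT signal passed the background mark but was dim: the lowest signal to pass on that array was 14.7. The size of each difference taken against marrow WT is therefore uncertain. After scaling, the array labelled KO was 5.24 higher than WT in marrow on the log2 scale (37.9-fold), the 13th highest of 21232 measured genes. In the spleen the KO minus WT difference was 0.40, with a scanner error of 0.22. Among WT arrays the spleen was 2.30 higher than the marrow, and among KO arrays the difference was -2.54. The marrow difference was 3.63 after normexp background correction and 3.24 as the median over both probes. The dimmer probe had signals between 4.34 and 10.7 on the 4 arrays, none well above background, so the Nt5e result rests on 1 probe.

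Entpd1, which supplies CD73 with AMP, read 1195 (KO) and 534 (WT) in marrow and 640 (KO) and 1301 (WT) in spleen by its brighter probe. Relative to each array's 75th percentile, marrow WT was the low array, at -0.85, and the other 3 lay between 0.25 and 0.42, within the scanner error of each other. The array labelled KO was 1.09 higher than WT in marrow (2.13-fold), and 1.23 higher by the dimmer probe, whose signals were 530, 215, 190 and 310 in the same order. The spleen difference was -0.12 by the brighter and 0.19 by the dimmer probe. These probes lie on chromosome 19, at 40814006 to 40814065 and 40815013 to 40815072. WT spleen was 1.27 above WT marrow by the brighter probe and 0.51 by the dimmer, which is under 2-fold.

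Enpp1, which acts on ATP, NAD and cyclic dinucleotides, had its highest levels in the spleen. The brighter probe read 641 (KO) and 990 (WT) in marrow and 1721 (KO) and 3946 (WT) in spleen. The scaled order was spleen WT, spleen KO, marrow WT and marrow KO, with both spleen arrays above both marrow arrays. Spleen was 1.98 higher than marrow among WT arrays and 2.38 among KO arrays. KO minus WT was -0.70 in marrow and -0.30 in spleen, the latter becoming 0.12 when arrays were scaled by their median. The dimmer probe had signals of 131, 155, 114 and 633 in the same order of arrays. Its spleen difference was -1.57, past 2-fold, where the brighter probe was not, while its WT tissue difference of 2.01 was close to that of the brighter probe. Between KO tissues it differed by 0.76, under 2-fold, against 2.38 by the brighter probe.

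Ada, adenosine deaminase, has a single probe, on chromosome 2 at 163552581 to 163552640. It read 5802 ± 580 (KO) and 2103 ± 210 (WT) in marrow and 1420 ± 142 (KO) and 1775 ± 178 (WT) in spleen. Marrow KO was the high array. After scaling, the array labelled KO was 1.39 higher than WT in marrow (2.63-fold) and 0.58 higher in spleen, where its unscaled signal was the lower one. Over all processing alternatives tried, the spleen difference lay between 0.23 and 0.997. WT spleen and marrow differed by -0.26, little more than the scanner error, and KO spleen and marrow by -1.07, or by -0.85 when arrays were scaled by their median.

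Adora2a, the gene of an adenosine receptor that raises cyclic AMP, differed less between arrays than any other member, by its brighter probe. That probe read 1374 (KO) and 1731 (WT) in marrow and 695 (KO) and 1730 (WT) in spleen, and its scaled levels covered a range of 0.43. Both KO arrays were lower than their WT partner, by -0.40 in marrow and -0.42 in spleen, and the spleen value became 0.00 when arrays were scaled by their median. The dimmer probe, on chromosome 10 at 74797351 to 74797411, lies 1320 bases downstream of the brighter one (74795972 to 74796031) and had signals of 519, 590, 185 and 856. It differed by -0.25 in marrow and -1.31 in spleen (2.48-fold lower), so the probes differ on whether the spleen difference passes 2-fold. Adora2b, a related receptor with a lower affinity for adenosine, was dim. Its probe, on chromosome 11 at 62079096 to 62079155, read 25.7 (KO) and 22.2 (WT) in marrow, which differ by 0.14 after scaling. In the spleen it read 6.33 and 6.12, not well above background. WT marrow was at least 1.16-fold above WT spleen, and no fold is given for the KO tissues or within the spleen.

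The NAD ectoenzymes Bst1 and Cd38 are neighbours: their probes lie 68885 bases from each other on chromosome 5, and the RefSeq order has 0 protein-coding genes between them. Their levels followed different orders over the arrays. Bst1 read 15149 ± 1515 (KO) and 5015 ± 501 (WT) in marrow and 827 ± 82.8 (KO) and 193 ± 19.9 (WT) in spleen. The scaled levels ran in the same order, and each step exceeded the scanner error. The array labelled KO was 1.53 higher in marrow (2.88-fold) and 3.002 higher in spleen (8.01-fold), the 77th highest of 19811 genes measured there. Spleen minus marrow was -4.72 among WT arrays (26.3-fold lower), the 85th lowest of 21447 genes, and -3.24 among KO arrays (9.45-fold lower). Over all processing alternatives tried, the marrow KO minus WT difference of Bst1 lay between 1.44 and 1.56 and the spleen one between 2.56 and 3.42.

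Cd38, which makes ADP-ribose and cyclic ADP-ribose from NAD, read 4696 (KO) and 4583 (WT) in marrow and 5908 (KO) and 4569 (WT) in spleen by its brighter probe. Scaled levels were 2.22, 2.25 and 2.24 on marrow KO, marrow WT and spleen WT, within the scanner error, and 3.51 on spleen KO. KO minus WT was thus -0.03 in marrow and 1.27 in spleen (2.41-fold). The dimmer probe, 3207 bases upstream, had signals of 389, 398, 383 and 864. By that probe the marrow difference was -0.10 and the spleen one -0.27, and spleen was above marrow by 1.104 among WT and 0.93 among KO arrays. The higher Cd38 level of spleen KO thus rests on 1 of 2 probes, and was under 2-fold under 4 of the alternatives: 0.94, 0.71, 0.75 and 0.50 with the percentile over spots above background on all arrays, quantile normalization, cyclic loess and the median over both probes.

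**Figure D2:**
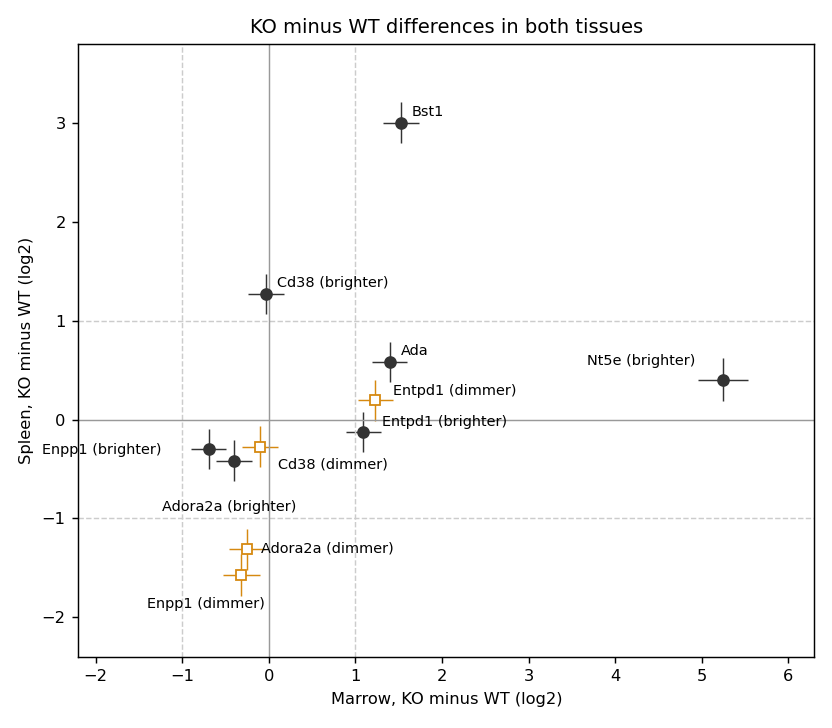
KO minus WT differences in marrow (horizontal, log2) against spleen (vertical, log2) for the 11 probes above background on all 4 arrays; black circles are brighter or only probes, open squares dimmer probes, bars the scanner error and dashed lines 2-fold. Bst1 lies past 2-fold in both tissues, Nt5e, Ada and Entpd1 in marrow only, and the Cd38, Adora2a and Enpp1 probe pairs part along the spleen axis.

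In the marrow comparison 4 of 8 members were at least 2-fold higher on the array labelled KO, namely Nt5e, Bst1, Ada and Entpd1, and 0 were lower. Of all 21232 measured genes, 8.35% were at least 2-fold higher, 4.90% lower and 13.3% either way. In the spleen 2 of 7 measured members were higher, Bst1 and Cd38, and 0 lower, beside 19.8% of all 19811 genes higher, 14.4% lower and 34.3% either way. The members' median KO minus WT difference was 0.62 in marrow and 0.40 in spleen, where the medians over all genes were -0.06 and 0.27. Since the members were chosen with these contrasts in view, nothing is read from these shares. The share of higher genes among those apart was 63.0% in marrow and 57.9% in spleen, and ranged with the scaling from 60.4% to 74.9% and from 36.5% to 79.7%. Between WT and between KO tissues it was 49.6% (38.9% to 59.3%) and 53.1% (43.9% to 65.1%). Relative to the median gene of the spleen, Bst1 was 2.73 and Cd38 0.998 higher, Ada 0.31 and Nt5e 0.13 higher, and Entpd1, Enpp1 and Adora2a differed by -0.40, -0.57 and -0.69.

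Between tissues, WT spleen was at least 2-fold above WT marrow for 3 of 8 members (Nt5e, Entpd1, Enpp1) and below for 1 (Bst1), beside 15.5% and 15.7% of 21447 genes (31.2% either way). KO spleen was above KO marrow for 2 (Cd38, Enpp1) and below for 3 (Nt5e, Bst1, Ada), beside 15.7% and 13.9% of 20320 genes (29.6% either way). Enpp1 and Bst1 thus kept the direction of their tissue difference in both genotypes, and Nt5e did not. These comparisons share arrays with the genotype comparisons and are not independent of them. For the 4 members with 2 measured probes, the probes' differences lay over 2-fold from each other for 0 genes in marrow, 2 in spleen (Cd38 and Enpp1), 1 between WT tissues (Cd38) and 1 between KO tissues (Enpp1). Over all genes with 2 or more measured probes this was so for 12.6%, 49.2%, 35.0% and 22.8%.

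**Figure D3:**
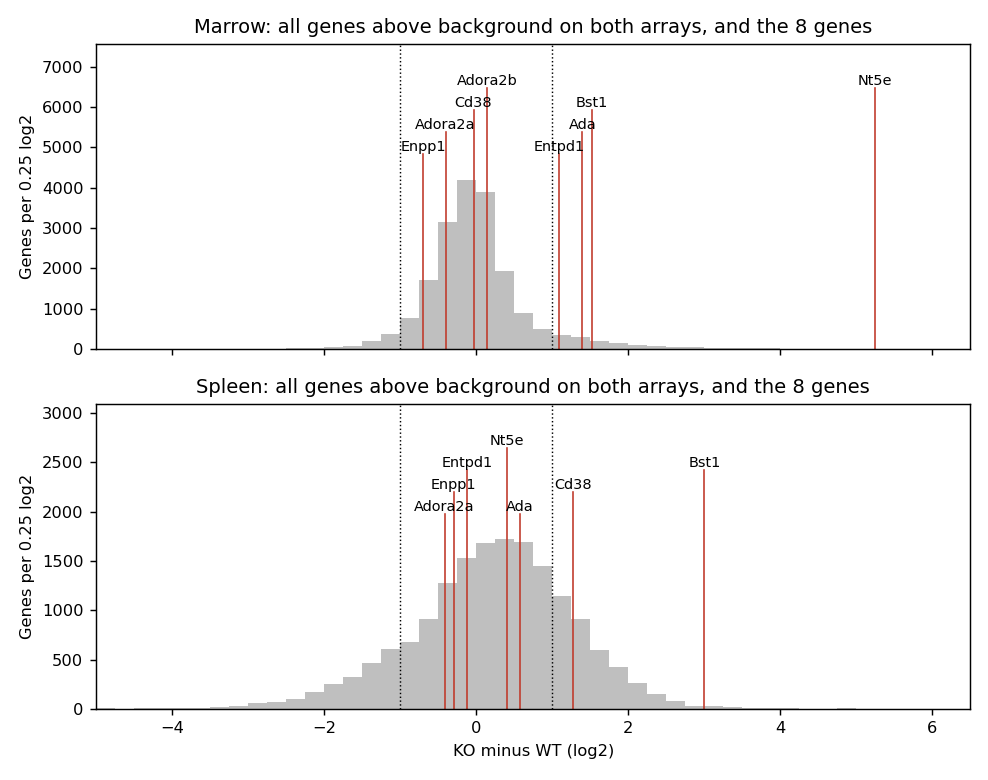
Number of genes (vertical axis) by KO minus WT difference in bins of 0.25 log2 (horizontal axis) for marrow (top) and spleen (bottom), grey, with the members as red lines and 2-fold as dotted lines. In marrow Nt5e at 5.24 lies far in the upper tail, and in spleen, where the distribution is wider, Bst1 at 3.002 does.

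Members with the widest range over the arrays were set beside the genes whose profile over the 4 arrays, centred on its mean, lay nearest, among 16516 genes above background on all arrays. For Bst1 (range 6.24), 3 of the 5 nearest had a current symbol: Serpinh1, a collagen chaperone (distance 0.71), S100a8, an abundant neutrophil calcium-binding protein (0.71), and Ankrd6 (0.78). S100a8 differed by 2.36 in marrow and 3.19 in spleen, against 1.53 and 3.002 for Bst1. For Nt5e (range 5.24) the 4 nearest with a current symbol were Cd300lf, a myeloid inhibitory receptor (0.86), Fpr1, the neutrophil formyl peptide receptor (0.93), S100a6 (1.14) and Cd3d, a T cell receptor complex chain (1.22). Fpr1 differed by 4.42 in marrow and 0.53 in spleen. For Enpp1 (range 2.68) they were Macf1, a cytoskeletal linker (0.14), and Gpr18, a receptor of lymphocytes (0.15). Likeness over 4 arrays is a description of these libraries.

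Cell type markers were measured on the same arrays, and their part in the members' differences was not tested. In such bulk samples, fewer cells of a type and less RNA per cell cannot be told apart. All 8 B lineage markers were well above background on all arrays, with summed signals, relative to the 75th percentile, of 445 (KO) and 516 (WT) in marrow and 1042 (KO) and 655 (WT) in spleen. Their median KO minus WT difference was nevertheless -0.76 in marrow and -0.77 in spleen. In marrow 0 were higher and 3 lower (Cd22, -2.43). In spleen 2 were higher (Blnk, 1.59) and 4 lower (Cd79a, -2.46). Pro-B and pre-B cell markers, the stage at which CD157 is known from B cells, summed to 783 and 501 on marrow KO and WT and 41.6 and 60.03 on spleen KO and WT. In marrow 4 of 10 were higher on KO and 0 lower (median 0.61). In spleen 2 of 7 were higher and 1 lower, and the median of 0.43 had the opposite direction to the sum. Beside the marrow differences of Nt5e, Bst1, Ada and Entpd1, 12 of 13 neutrophil markers were at least 2-fold higher on marrow KO (median 2.70, summed signals 1528 and 443). So were 8 of 10 stromal and endothelial markers (median 1.79, 39.1 and 12.97) and 4 of 6 platelet markers (median 1.38, 16.8 and 4.64). Of all genes, 8.35% were higher there.

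Beside the spleen differences of Bst1 and Cd38, 7 of 12 measured neutrophil markers were higher on spleen KO and 1, Mmp9, was lower. Their median was 2.03, or 1.64 with the bound of Mmp9 included. Summed signals of the neutrophil markers were 146 on spleen KO against 11.5 on spleen WT. Of 5 measured erythroid markers, 4 were higher and 0 lower on spleen KO (median 1.55). Over all genes, 19.8% were higher and 14.4% lower. Stromal and endothelial markers summed to 1.51 and 2.81 on spleen KO and WT, with 1 of 8 higher and 1 lower. Monocyte and macrophage markers summed to 80.0 and 26.1 on marrow KO and WT and 200 and 114 on spleen KO and WT. Of these 12 markers, 3 were higher and 0 lower in marrow, and 6 higher and 1 lower in spleen. T cell markers summed to 6.89, 4.46, 9.72 and 8.10 on the 4 arrays in the order marrow KO, marrow WT, spleen KO and spleen WT. NK cell markers lay between 2.06 and 6.197, plasmacytoid dendritic cell markers between 14.4 and 36.0, plasma cell markers between 47.1 and 87.5 and platelet markers on the spleen arrays between 0.57 and 0.78. Erythroid markers lay between 5.35 and 28.0, highest on spleen KO. Between tissues, 12 of 13 neutrophil and 10 of 10 pro-B and pre-B cell markers were at least 2-fold lower on spleen WT than on marrow WT, beside the lower Bst1. The same held for 8 of 10 stromal and endothelial markers (median -1.86, or -1.90 with bounds) and 6 of 6 platelet markers (median -2.44, or -2.63 with bounds). Of all genes, 15.5% were higher and 15.7% lower on spleen WT. Beside the higher Nt5e, Entpd1 and Enpp1 of WT spleen, 7 of 10 T cell markers were higher and 0 lower (median 1.89, or 1.66 with bounds). Of 7 NK cell markers, 4 were higher and 0 lower (median 1.21). Of 12 monocyte and macrophage markers, 8 were higher and 1, Itgam, lower at -2.02 (median 1.69).

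**Figure D4:**
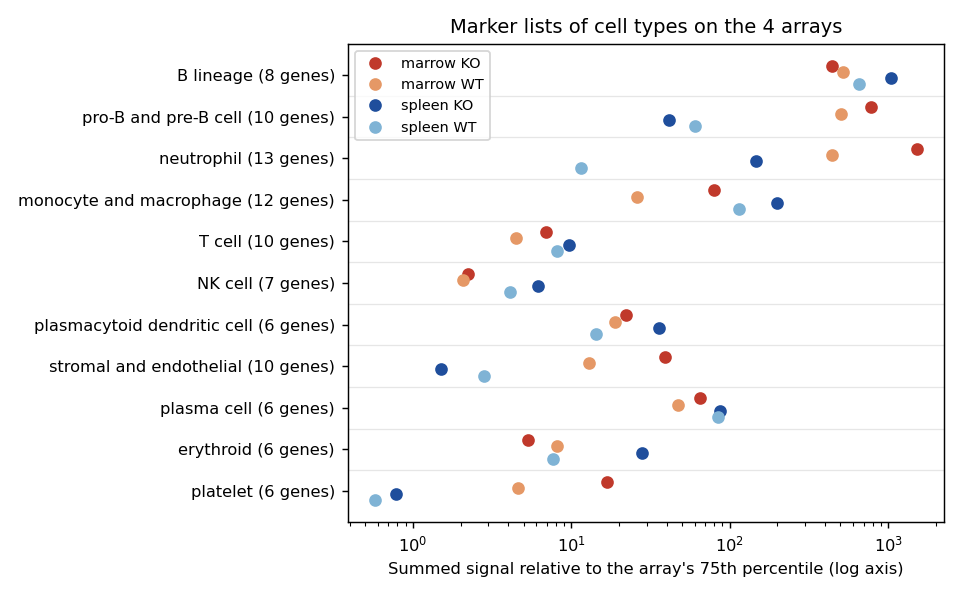
Summed signal of each marker list relative to the array's 75th percentile (horizontal, log axis) on the 4 arrays, 1 row per cell type. Neutrophil markers read 1528 on marrow KO against 443 on marrow WT and 146 on spleen KO against 11.5 on spleen WT. B lineage markers read 445 on marrow KO against 516 on marrow WT and 1042 on spleen KO against 655 on spleen WT.

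Other genes of purine and NAD metabolism were taken as 6 lists with 103 genes on the array. In marrow 23 of 96 measured were at least 2-fold higher on the array labelled KO (24.0%) and 1 lower (1.04%), with a median of 0.18. Over all genes, as above, 8.35% were higher and 4.90% lower there. In spleen 28 of 84 were higher (33.3%) and 11 lower (13.1%), their median being 0.43, where all genes had 19.8% and 14.4%. Between tissues, 16 of 91 were higher (17.6%) and 21 lower (23.1%) on WT spleen, beside 15.5% and 15.7% of all genes. On KO spleen 19 of 95 were higher (20.0%) and 21 lower (22.1%), beside 15.7% and 13.9% of all genes. The lists too were chosen with earlier results of these data known.

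The ectonucleotidase list also holds related enzymes that are not at the cell surface, Cant1 among them. Its genes were higher on marrow KO in 4 of 14 cases, 0 lower. Acpp, an acid phosphatase that also cuts AMP, stood at 2.98 (1.38 by its other probe). Entpd3, not well above background on marrow WT, had a lower bound of the same size, 2.98. In spleen 5 of 10 were higher and 2 lower: Enpp4 stood at 2.62 (-0.01 by its other probe) and Cant1, a nucleotidase, at -2.12. Of the other purinergic receptors, 9 of 15 were higher in marrow and 0 lower, with a median of 1.12, or 0.74 to 1.25 over the scalings and background correction tried. P2ry2, a receptor for ATP and UTP, differed by 2.70 (0.62 by its other probe). In spleen 4 of 12 were higher and 0 lower, with P2ry10, a lysophosphatidylserine receptor named with this family, at 2.80. The shares over all genes were 8.35% higher and 4.90% lower in marrow, and 19.8% and 14.4% in spleen.

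Purine salvage and breakdown genes had 3 of 18 higher and 1 lower in marrow: guanine deaminase, Gda, differed by 3.97 (3.59 by its other probe) and the cytosolic nucleotidase Nt5c2 by -1.06. In spleen 6 of 16 were higher and 1 lower, with Nt5c at 1.67 and the AMP deaminase Ampd3 at -1.40, and the list's median of 0.41 changed sign under 2 scalings. Of nucleoside and nucleotide transport genes, 1 of 11 was higher in marrow, the vesicular nucleotide transporter Slc17a9 at 1.20. In spleen 2 of 10 were higher, led by the ATP-releasing channel Panx1 at 1.94 (-0.80 by its other probe), and 2 lower, led by the lysosomal nucleoside transporter Slc29a3 at -3.26. Their spleen median was 0.17 and the mean -0.00, and the median changed sign under 3 scalings, as the marrow median of 0.02 did under 1. All genes had 8.35% higher and 4.90% lower in marrow, and 19.8% and 14.4% in spleen. The counts of higher transport genes lay near these shares in both tissues.

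The NAD synthesis list, which also holds enzymes that use nicotinamide or NAD, had 2 of 15 higher and 0 lower in marrow. The 2 were of that kind: nicotinamide N-methyltransferase, Nnmt, at 2.40 and the NAD kinase Nadk at 1.51. The list's other measured genes were within 2-fold there. In spleen 5 of 14 were higher and 3 lower, with the nicotinamide riboside kinase Nmrk1 at 2.11 and Afmid at -1.30 (-0.17 by its other probe). NAD-consuming enzymes and the ADP-ribose channel had 4 of 23 higher and 0 lower in marrow. The highest was Trpm2, the cation channel that opens on ADP-ribose, at 3.82. In spleen 6 of 22 were higher and 3 lower, with the ADP-ribose polymerases Tnks2 at 1.81 (-1.74 by its other probe) and Parp3 at -1.93. Beside the counts of both lists, 8.35% of all genes were higher and 4.90% lower in marrow, and 19.8% and 14.4% in spleen.

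**Figure D5:**
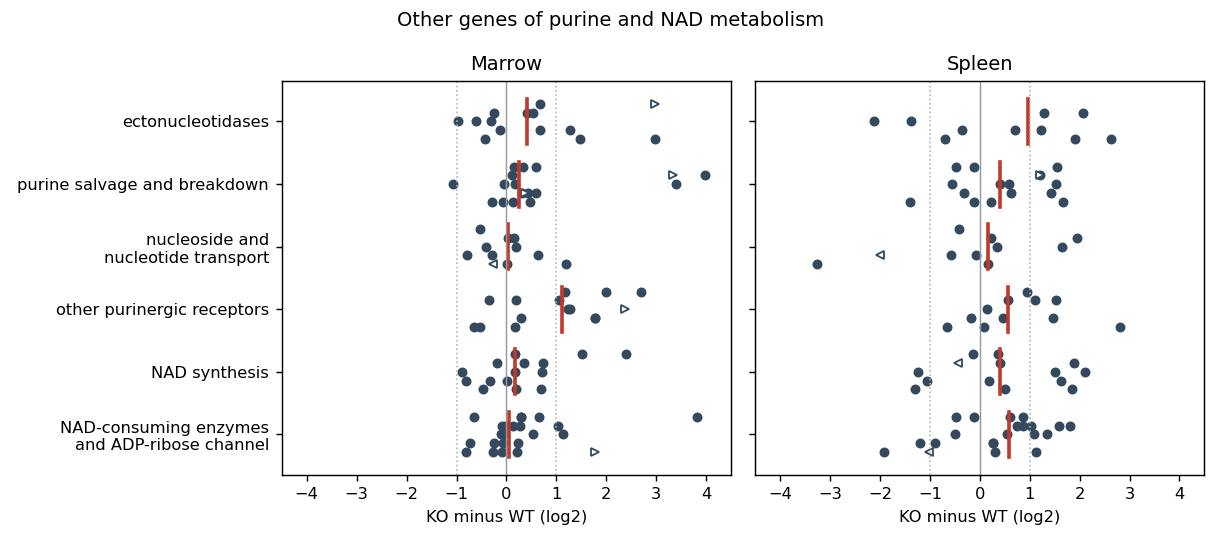
KO minus WT differences (log2, horizontal) of the other genes in the 6 lists (vertical) for marrow (left) and spleen (right); circles are measured on both arrays, triangles are lower bounds pointing away from 0, red bars are medians of measured genes and dotted lines 2-fold. The purinergic receptors' marrow median of 1.12 is the only list median past 2-fold in either panel at this setting. The spleen ectonucleotidase median of 0.97 lies just under 2-fold.

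Promoter windows of 300 bases around annotated starts were taken from RefSeq (GRCm38.p6) and matched 6 of 8 members, with 7 windows. Bst1 and Adora2a had no window. The MEF2 consensus, searched on both strands, had 0 matches in the 7 windows, and 3.19% of all 32851 windows held it. At so low a share, 0 matches in 7 windows does not set the members apart from other genes. In the 250 bases before the start, CG dinucleotides numbered 21 for Nt5e, 18 and 8 for the starts of Entpd1, 14 for Ada, 22 for Adora2b, 17 for Enpp1 and 1 for Cd38. The median over all windows was 6, and 92.1% held at least 1. The upstream bases of Nt5e, the member with the largest marrow difference, and of Cd38, the member with the fewest CG dinucleotides, are shown with CG in capitals. Nt5e lies at chr9:88327359-88327608 and Cd38 at chr5:43868559-43868808, both on the plus strand.
Nt5e, upstream bases: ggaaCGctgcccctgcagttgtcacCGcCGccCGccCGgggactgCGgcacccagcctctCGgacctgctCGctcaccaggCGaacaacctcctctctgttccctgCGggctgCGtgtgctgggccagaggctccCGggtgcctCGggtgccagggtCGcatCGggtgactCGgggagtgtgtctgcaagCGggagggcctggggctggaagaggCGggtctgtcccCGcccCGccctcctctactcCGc
Cd38, upstream bases: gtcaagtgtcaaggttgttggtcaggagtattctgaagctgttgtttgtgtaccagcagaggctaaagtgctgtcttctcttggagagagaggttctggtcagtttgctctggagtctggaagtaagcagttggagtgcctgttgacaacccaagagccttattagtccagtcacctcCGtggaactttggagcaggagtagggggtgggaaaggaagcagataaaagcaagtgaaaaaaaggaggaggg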

How the data were processed

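RNA of B220 B cells was measured on 4 arrays, 1 per tissue and genotype, grouped by the labels alone. The deposited scanner files hold linear intensity values, which the authors' scanner software, Agilent Feature Extraction 10.5.1.1, corrected for background and detrended, with no normalization between arrays recorded, per the file headers. The deposited value table equalled this intensity at all 45018 spots (tolerance 0). Control spots and 72 to 85 outlier spots per array were dropped, and 0 were saturated. From the deposited intensity, log2 values were taken relative to the 75th percentile of an array's 43379 gene spots. Repeated spots had a median SD of 0.0639 to 0.0780 (log2).

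A gene was measured where the probe with the highest mean over the 4 arrays was well above background, by the scanner software's mark, on at least 1 of the 2 arrays. With 1 dim side, a lower bound was computed, using for the dim side its own value or the array's lowest value that passed the background mark, whichever was higher. Counts include bounds, while medians over genes cover those well above background on both arrays, unless bounds are named. Members were named through accessions, and of 41174 probes 25097 were named this way, 6333 had a current symbol and 9744 kept another name. Genes named beyond the members are, of each list, those with the largest difference in each direction past 2-fold, and the 5 genes nearest in profile to the 3 members with the widest range. With 1 array per group no test was run, and precision is limited by their number. The members and lists were chosen with earlier results of these data known. Alternatives were scaling by the median or by the percentile over spots above background on all arrays, quantile normalization, cyclic loess and normexp (offset 50) in limma 3.58.1 (R 4.3.3), the median over probes, no filter, a filter on both arrays, a threshold of 1.5-fold and, added after seeing the data, a probe choice without spleen KO. Tables were made with Python 3.11.15 and pandas 2.3.3, and the counting of differences was tested on simulated data.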

Additional observations from a re-analysis of the deposited data

Results flagged for a closer look

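Entpd1 and Cd38 had KO minus WT differences of opposite sign in the 2 tissues by their brighter probes. The contrast was not tested, since each difference rests on 1 array per group. The spleen value of Entpd1 and the marrow value of Cd38 lay within the scanner error of 0.20, so neither gene is shown to reverse direction. Entpd1 differed by 1.09 in marrow and -0.12 in spleen, and the spleen value became 0.29 when arrays were scaled by their median and 0.04 as the median over both probes. Cd38 differed by -0.034 in marrow and 1.27 in spleen by its brighter probe, and by -0.10 and -0.27 by its dimmer probe.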

How the results depend on the processing

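No paired analysis was possible because each group has 1 array, and for the same reason no array could be left out. Of the 15 member differences past 2-fold, 0 changed sign under the alternatives and 3 came under 2-fold: Cd38 in the spleen, Entpd1 between WT tissues (0.89 as the median over probes) and Ada between KO tissues (-0.85, scaled by the median). The 2 spleen members past 2-fold, both higher, became 1 with the percentile over spots above background on all arrays, quantile normalization, cyclic loess and the median over probes. A threshold of 1.5-fold gave 1 member lower on marrow KO, where the main count was 0. Without a filter on background 2 members were lower on WT spleen than on WT marrow, against 1, Adora2b then joining at -1.87. Between tissues, Nt5e differed by 1.28 instead of 2.30 (WT) with normexp and with the median over probes, and by -1.39 instead of -2.54 (KO) with the latter, where Enpp1 differed by 1.57 instead of 2.38. Of 31 member differences, bounds included, 7 changed sign under some alternative, each of them under 2-fold at the main setting. For Adora2b between KO tissues, which has no fold, the value without a filter was -1.07. The percent of all genes apart was 6.5 with normexp in marrow and 20.0 between WT tissues, and at 1.5-fold 28.8, 55.3, 52.7 and 48.5 in marrow, spleen, WT and KO tissues. Scaling by the median moved the median of all genes by 0.42 in spleen, -0.17 between WT and 0.23 between KO tissues, and the percentile over spots above background on all arrays by -0.33, 0.17 and -0.13. Signal over background limits Adora2b and the dimmer Nt5e probe, which have no measured difference in the spleen. It also limits the brighter Nt5e probe on marrow WT, where its signal was 28.4, and so its marrow and WT tissue differences.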
